A study of Homo sapiens with 6 samples.

Results

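RNA polymerase III makes short RNAs that carry no poly(A) tail and are never translated. The genes described here are 10 of these: RN7SK, RMRP, RPPH1, the Y RNA genes RNY1, RNY3, RNY4 and RNY5, the vault RNA genes VTRNA1-1 and VTRNA1-2, and the U6 gene RNU6-1. They are 10 of 22411 genes measured, and all 10 had at least 1 probe set annotated to that gene alone. They were picked for being short and free of poly(A), with the contrast of doxycycline-treated against untreated cultures in view, and RNU6-1 was chosen by its measured log2 signal, which was lower in treated cells. The differences between groups of these 10 genes are therefore given as a description, with no test.

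The cells were HCT-shSLBP, a line derived from HCT116, a human colorectal carcinoma line, named after a short hairpin RNA that targets SLBP, the protein that binds the 3' stem-loop of replication-dependent histone mRNAs. There were 3 untreated cultures (Control) and 3 cultures given doxycycline at 2 µg/ml (Dox), with 1 gene-level array per culture. Both groups carry the hairpin line's background, and no doxycycline-treated culture of a line lacking the hairpin was compared, so effects of the drug and of the hairpin cannot be told apart. The promoter that drives the hairpin, the number of clones and the time of exposure are not given in the sources used here.

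Polymerase III uses different kinds of promoter on these genes. U6, 7SK, the RNase P and RNase MRP RNAs and the Y RNAs have promoters upstream of the gene, bound by the SNAP complex, while vault RNAs, like transfer RNAs, have promoter boxes inside the gene. The La protein binds the run of U residues at the 3' end of new transcripts and protects it, after which most of these RNAs pass into stable particles. Output of polymerase III is known to be raised in many tumour cells.

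SLBP served as the check of the labels. Its log2 signal was 8.07 ± 0.029 in untreated and 7.30 ± 0.098 in treated cultures (SD, n = 3 per group), a change of -0.77 (SE 0.055, limma adjusted p = 0.00322), and the exact two-sided permutation p was 0.1, the smallest that 3 arrays against 3 allow. All 10 epithelial markers examined lay above the background yardstick of 4.52, which is the 95% point of the mean log2 signals of 359 olfactory receptor genes. Of the 10, VIL1 (4.56) and CDX2 (5.04) lay nearest to the yardstick. Of 7 measured markers foreign to the culture, 2 lay above it, COL1A1 at 6.32 and GFAP at 5.32, and PTPRC, CD3E, HBB, PECAM1 and ALB lay under it. The epithelial genes CLDN4 and CLDN7, which encode tight junction proteins, rose by 0.21 and 0.19 on the log2 scale (limma adjusted p = 0.0276 and 0.0336), and both calls were lost whichever single array was left out. The limma test called 6.19% of all genes at an adjusted p under 0.05, with 656 higher and 732 lower in treated cells. With 1 array left out these counts were 63 to 561 and 69 to 537.

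Of the 10 polymerase III genes, 8 had lower and 2 higher means in treated cultures, with a median log2 difference of -0.16. Over all genes tested the median was -0.019 and 58.2% had lower means. All 3 treated arrays lay under all 3 untreated arrays for 2 of the 10, RNU6-1 and RNY1, against 16.7% of all genes. By the fit of all genes 1 of the 10, RNU6-1, passed the threshold, against 6.19% of all genes. Nothing is read from these counts, since the contrast helped to choose the genes.

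**Figure D1:**
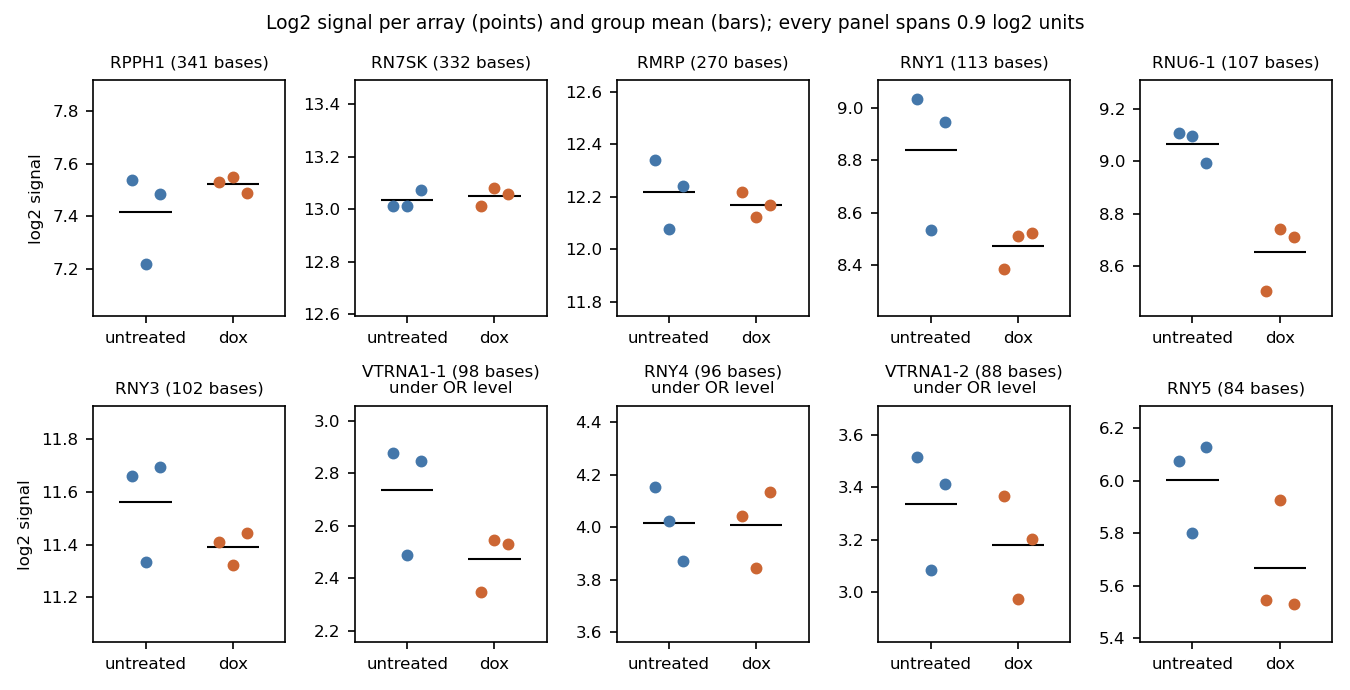
Log2 signal (y axis, each panel spanning 0.9 log2 units) of the 10 short polymerase III genes in the 3 untreated arrays (blue) and 3 doxycycline arrays (orange), with bars at the group means and panels ordered by RefSeq gene length. The groups do not overlap in the RNU6-1 and RNY1 panels, and for RMRP, RPPH1, RNY1, RNY3, RNY5, VTRNA1-1 and VTRNA1-2 untreated replicate 2 lies under the other 2 untreated arrays.

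The annotation limits what a probe set measures. The 10 genes had 13 probe sets with a single symbol. The number in a probe set's name matched the RefSeq chromosome of its gene in 95.39% of 23774 probe sets compared. It matched for 9 of these 13. The exceptions were 1 RNY4 probe set named for chromosome 6, 1 RNY5 probe set named for chromosome 12, and both RNU6-1 probe sets, named for chromosome 14, while RefSeq places RNY4 and RNY5 on chromosome 7 and RNU6-1 on chromosome 15. For RNY4 and RNY5 the brighter probe set, the one named for chromosome 7, gave the values below.

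RN7SK is the RNA of the 7SK particle, which holds the elongation kinase P-TEFb in an inactive state. Its log2 signal was 13.01, 13.01 and 13.07 in untreated and 13.01, 13.08 and 13.06 in treated cultures. These values interleave, and the difference of 0.017 (SE 0.040) is smaller than the range of 0.062 within the untreated arrays. It turned to -0.025 when quantile normalization was repeated.

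RMRP and RPPH1 are the catalytic RNAs of RNase MRP, which cuts precursor ribosomal RNA, and of RNase P, which trims the 5' leader of precursor transfer RNAs. RMRP read 12.34, 12.08 and 12.24 in untreated and 12.22, 12.12 and 12.17 in treated cultures, with all treated values inside the untreated range. The log2 difference was -0.050 (SE 0.070), and it was 0.010 without untreated replicate 1 and -0.12 without untreated replicate 2. RPPH1 read 7.54, 7.22 and 7.49 against 7.53, 7.55 and 7.49, a log2 difference of 0.11 (SE 0.083) that rested on the low value of untreated replicate 2. Without that array the difference was 0.0098, and without untreated replicate 1 it was 0.17.

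The Y RNAs bind the Ro60 protein, and in vertebrates they are needed for the start of chromosomal DNA replication. RNY1 read 9.03, 8.53 and 8.94 in untreated and 8.38, 8.51 and 8.52 in treated cultures. The treated arrays all lay under the untreated ones, but untreated replicate 2 was only just above them. The log2 difference was -0.37 (SE 0.125), which corresponds to 77.6% of the untreated signal, and it was -0.52 without untreated replicate 2, -0.27 without untreated replicate 1 and -0.31 without untreated replicate 3.

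RNY3 read 11.66, 11.33 and 11.69 in untreated and 11.41, 11.32 and 11.44 in treated cultures. Untreated replicate 2 lay among the treated arrays, so the groups overlapped. The log2 difference was -0.17 (SE 0.096), and it was -0.29 without untreated replicate 2, -0.12 without untreated replicate 1 and -0.11 without untreated replicate 3.

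RNY5 is the shortest of the 10 genes, at 84 bases. It read 6.07, 5.80 and 6.13 in untreated and 5.55, 5.93 and 5.53 in treated cultures. Treated replicate 2 lay above untreated replicate 2, so the groups overlapped, while the other 2 treated arrays lay below all untreated ones. The log2 difference was -0.33 (SE 0.128), or 79.3% of the untreated signal. The RNY5 probe set named for chromosome 12 had a mean of 1.46, under the yardstick, and a difference of -0.074, and the mean of both probe sets differed by -0.20.

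RNY4 lay under the yardstick, with a mean log2 signal of 4.01. It read 4.15, 4.02 and 3.87 in untreated and 4.04, 3.84 and 4.14 in treated cultures, which interleave, with a log2 difference of -0.0095 (SE 0.095) whose sign turned in 4 of 13 other settings. The RNY4 probe set named for chromosome 6 had a mean of 3.27 and a difference of -0.46 (SE 0.214 in the fit of every probe set), with overlapping groups. The probe sets under this symbol therefore gave unlike values, both at a level where 95% of olfactory receptor genes also lay.

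Vault RNAs are parts of the vault, a large cytoplasmic particle, and VTRNA1-1 is known to bind the autophagy receptor p62 in human cells. Both members lay under the yardstick. VTRNA1-1 read 2.88, 2.49 and 2.85 in untreated and 2.35, 2.55 and 2.53 in treated cultures, a log2 difference of -0.26 (SE 0.111), with untreated replicate 2 among the treated arrays, and -0.39 without that array. VTRNA1-2 read 3.52, 3.08 and 3.41 against 3.37, 2.97 and 3.20, a difference of -0.16 (SE 0.134), and the groups overlapped. That difference was -0.28 without untreated replicate 2, -0.067 without untreated replicate 1 and -0.053 without treated replicate 2.

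Another vault RNA of the same cluster on chromosome 5, VTRNA1-3, was not among the 10 and lay above the yardstick. It read 6.04, 5.73 and 6.03 in untreated and 5.81, 5.14 and 5.54 in treated cultures. The groups overlapped through treated replicate 1, and the log2 difference of -0.44 (SE 0.170) did not pass limma's test (adjusted p = 0.185). VTRNA2-1, on another part of the same chromosome and known to bind the kinase PKR, differed by -0.22 (SE 0.228, limma adjusted p = 0.632).

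**Figure D2:**
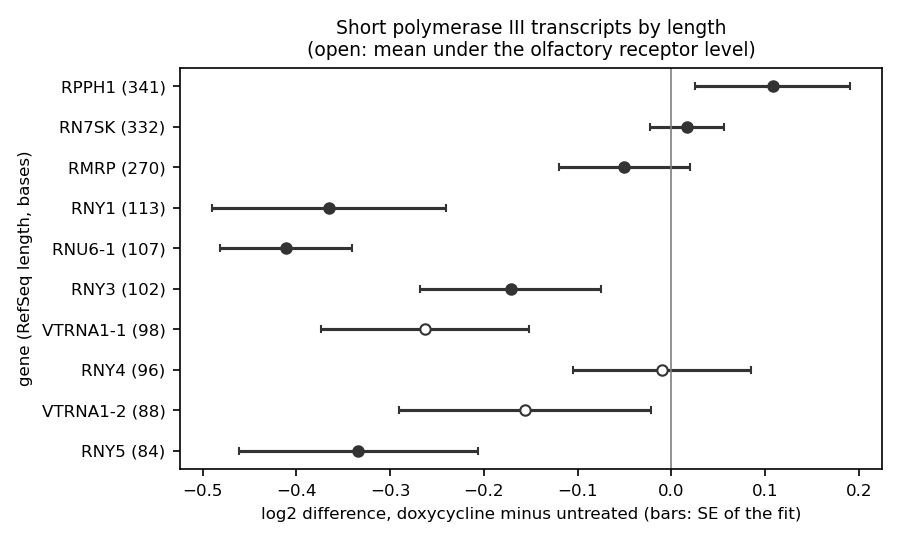
Log2 difference, doxycycline minus untreated (x axis, points, with the SE of the fit as bars), of the 10 genes ordered by RefSeq length in bases (y axis). The 3 genes over 200 bases lie between -0.050 and 0.11, and the 7 shorter ones between -0.41 and -0.0095, with open points for RNY4, VTRNA1-1 and VTRNA1-2, whose means lay under the yardstick.

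RNU6-1 encodes U6, the small nuclear RNA at the catalytic centre of the spliceosome. It read 9.11, 9.09 and 8.99 in untreated and 8.51, 8.74 and 8.71 in treated cultures. Every treated array lay under every untreated one, and untreated replicate 2 was not the lowest untreated array here. The log2 difference was -0.41 (SE 0.070), or 75.2% of the untreated signal, and between -0.45 and -0.34 when any 1 array was left out.

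These values do not belong to the RNU6-1 locus alone. The same 6 values stood in 10 probe sets of the array, 8 of them with RNU6-1 among their symbols and 2 with another U6 symbol, RNU6-37 and RNU6-11. They are 1 measurement of U6 sequence, repeated under several names. Over the whole U6 family, 82 probe sets gave 70 distinct measurements, and 34 of these lay above the yardstick. Of the 34, 27 were lower in treated cultures, with a median log2 difference of -0.20 and a range from -0.41 to 0.18. All treated arrays lay under all untreated arrays in 14 of the 34 and above them in none, against 16.7% and 12.5% of all genes. These U6 probe sets can share probes or cross-hybridise, and RNU6-1 is among them, so they are not independent.

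The difference was larger in the brighter U6 probe sets. Of 11 distinct measurements with a mean log2 signal of at least 8, all 11 were lower in treated cultures, by a median of -0.33. These 11 include the RNU6-1 measurement, which was chosen for its fall, and near copies of its values in RNU6-33P (-0.40) and RNU6-36P (-0.39). The count of 11 therefore partly repeats the value used in the choice. Of 23 between the yardstick and 8, 16 were lower, with a median of -0.12. Of 36 at or under the yardstick, 20 were lower, with a median of -0.051. The probe set under the symbol RNU6-7, which was named for chromosome 3 while RefSeq places that gene on chromosome 14, differed by -0.17 (SE 0.118, limma adjusted p = 0.463), with overlapping groups. RNU6ATAC, the U6 counterpart of the minor spliceosome, differed by -0.18 (SE 0.182, limma adjusted p = 0.627).

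**Figure D3:**
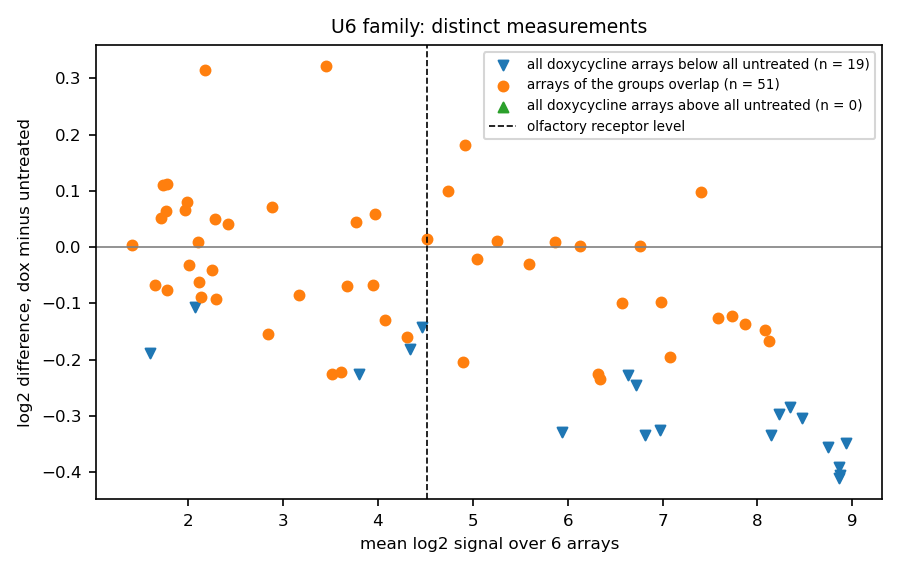
Mean log2 signal over 6 arrays (x axis) against log2 difference, doxycycline minus untreated (y axis), for 70 distinct measurements of the U6 family, with the yardstick as a dashed line. Triangles mark the 19 measurements in which all treated arrays lay under all untreated arrays, and 9 of these have a mean of at least 8.

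By length, the 10 genes fell into 3 over 200 bases and 7 under 200. RN7SK has 332 bases, RMRP 270 and RPPH1 341, and 1 of these 3 had a lower mean in treated cultures, with a median log2 difference of 0.017. All 7 shorter genes had lower means, against 58.2% of all genes, with a median of -0.26, and 4 of the 7 lay above the yardstick. Of the 7, RNY4 differed by only -0.0095 (SE 0.095). The contrast helped to choose these genes, and RNU6-1 was chosen for its fall, so nothing is read from this split. RNA was purified on a silica column, a kind of kit that recovers the shortest RNAs incompletely. How recovery varied between cultures was not measured, and the part of length in these differences was not tested.

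Other polymerase III transcripts, which did not enter the selection, were measured for 15 of 28 listed genes. Of these 12 had lower means, 1 fell and none rose, against 58.2%, 3.27% and 2.93% of all genes, and the median log2 difference was -0.19. At an unadjusted p under 0.05 limma's test held 5 of the 15, SNAR-E, SNAR-G2, SNAR-I, RNA5S9 and VTRNA1-3, all lower, against 12.7% of all genes lower at that threshold. The gene that fell was SNAR-E, of the snaR family of short primate RNAs, with 8.11, 8.01 and 8.21 in untreated and 7.66, 7.68 and 7.77 in treated cultures. Its log2 change was -0.41 (SE 0.060, limma adjusted p = 0.0148), a call that was lost, with adjusted p of up to 0.0612, without untreated replicate 1 or 3 or treated replicate 2 or 3. SNAR-G2 had a difference of -0.31 (SE 0.10, limma adjusted p = 0.119) with no overlap between groups.

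Probe sets that carry several snaR or 5S symbols were read in a fit of every probe set, in which 0.488% of 70523 passed. The snaR family gave 13 distinct measurements, 12 of them lower in treated cultures, with a median log2 difference of -0.31. In 8 all treated arrays lay under all untreated ones, against 16.7% of all genes. Some, such as SNAR-C3 (-0.43) and SNAR-C4 (-0.42), both with a mean of 7.72, had nearly the same values on every array. These probe sets can share probes or cross-hybridise, so they are not independent. SNAR-A12 and SNAR-A13, which share 1 probe set, fell by 0.50 on the log2 scale in this fit (limma adjusted p = 0.0405). The probe sets of SNAR-A1 to SNAR-A4 had a difference of -0.50 (limma adjusted p = 0.0941). The 5S ribosomal RNA genes other than RNA5S9 shared 1 set of values over 16 probe sets. It read 9.82, 9.49 and 9.83 in untreated and 9.31, 9.38 and 9.55 in treated cultures, with untreated replicate 2 inside the treated range and a difference of -0.30 (SE 0.110, limma adjusted p = 0.277).

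The longer polymerase III RNAs outside the 10 lay close to 0. RN7SL1, the 299-base RNA of the signal recognition particle, differed by 0.095 (SE 0.055, limma adjusted p = 0.37). BCYRN1, a 200-base RNA of Alu origin, differed by 0.0040 (SE 0.070, limma adjusted p = 0.982). Its probe set was named for chromosome X, while RefSeq places the gene on chromosome 2, so the value may not belong to that locus.

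Short RNAs made by polymerase II or cut from introns did not all behave alike. Among genes under 200 bases above the yardstick, 14 of 15 other polymerase III RNAs had lower means, with a median log2 difference of -0.23. Of these 15, 9 are snaR genes, whose probe sets are not independent. Of 8 polymerase II snRNAs, 7 had lower means, with a median of -0.16, but the 8 hold no U1 or U2 gene. In the U1 family, 3 of 12 distinct measurements above the yardstick were lower in treated cultures, with a median of 0.062. The brightest of them, at 11.48, differed by -0.045. In the U2 family 1 of 3 was lower, with a median of 0.058. Of 56 C/D box small nucleolar RNAs, which guide methylation of ribosomal RNA, 11 had lower means and the median was 0.11. Untreated replicate 2 was low for this class. Over its 62 genes above the yardstick, the median deviation from the gene's mean was 0.080, -0.29 and -0.0017 in untreated arrays. In treated arrays it was 0.057, 0.072 and 0.12. The C/D tally was not recomputed without untreated replicate 2. Of 49 H/ACA box small nucleolar RNAs, which guide pseudouridylation, 27 had lower means and the median was -0.022. These classes were not compared by a test, and they differ in level and probe number as well as in polymerase.

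**Figure D4:**
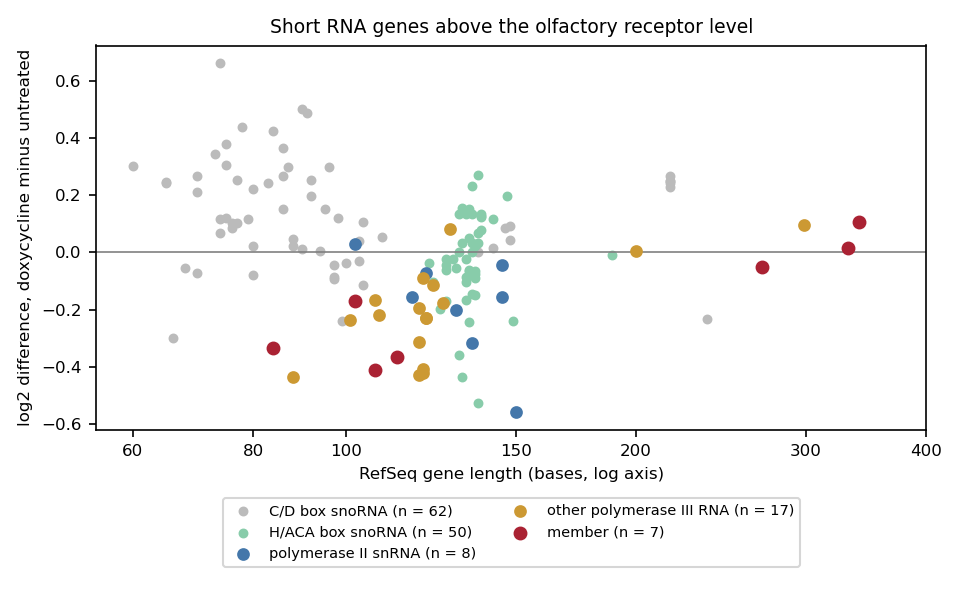
RefSeq gene length in bases (x axis, log scale) against log2 difference, doxycycline minus untreated (y axis), for short RNA genes above the yardstick by class. The 4 members under 200 bases lie between -0.41 and -0.17, and C/D box small nucleolar RNAs of like or shorter length lie between -0.30 and 0.66.

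Named genes of those classes follow, against 2.93% of all genes that rose and 3.27% that fell. The polymerase II snRNAs RNU12 and RNU11, which serve the minor spliceosome, fell by 0.56 (SE 0.080, limma adjusted p = 0.0142) and by 0.32 (SE 0.069, limma adjusted p = 0.0455) on the log2 scale, as 2 of 10 measured snRNAs of the list. SNORD93 rose by 0.66 (limma adjusted p = 0.00986), as did 6 other C/D box genes of 174, and none of them fell. SNORD19 rose by 0.47 (limma adjusted p = 0.0302) from a level under the yardstick. SNORA38B fell by 0.44 on the log2 scale (limma adjusted p = 0.0132), the only call among 64 H/ACA box genes. SCARNA17 rose by 0.36 (limma adjusted p = 0.0218), the only call among 21 Cajal body RNAs, and of 1041 microRNA genes 18 rose, among them MIR29A (1.56) and MIR21 (1.12), and 16 fell. The untreated means of MIR29A (3.59) and MIR21 (4.39) lay under the yardstick, and with background subtraction their changes were 0.98 and 1.30. With 1 array left out, MIR29A and MIR21 kept their calls in all 6 fits and RNU11 in none. RNU12 lost its call without untreated replicate 3 or treated replicate 3, SNORD93 without treated replicate 3, and SNORA38B without untreated replicate 1 or 2. SNORD19 kept its call only without treated replicate 1, and SCARNA17 only without untreated replicate 1.

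Untreated replicate 2 was low for short RNAs of several classes. Over genes above the yardstick, its median deviation from the gene's mean over 6 arrays was -0.12 for the members, -0.079 for the other listed polymerase III RNAs, -0.29 for C/D box and -0.15 for H/ACA box small nucleolar RNAs. It was -0.17 for Cajal body RNAs and -0.064 for polymerase II snRNAs. Not every class was low in that array: the median was -0.012 for snaR genes, 0.016 for microRNA genes and 0.064 for U6 copies other than RNU6-1. The same median was 0.014 for the protein-coding genes of polymerase III and its partners. RNU6-1 was 0.24 above its own mean in that array. The part of this array in the values of RNY1, RNY3, RPPH1 and the vault RNAs is given above by the values without it.

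The proteins that make, bind or process these RNAs were not used in the selection. Of 91 listed genes 84 were measured, all above the yardstick. Of the 84, 10 fell and none rose by limma's test, against 3.27% and 2.93% of all genes. Means were lower for 57, against 58.2% of all genes, and the median log2 difference was -0.048. These shares are not matched for level, since only 14761 of the 22411 genes lay above the yardstick. In the fit of the 11206 genes at or above the median level, 1413 fell and 1156 rose. Among partners at that level, 19 fell and 2 rose in that fit. How many of the 84 lay at that level is not given here, so these 2 counts are not shares. In the fit of all genes, limma's test held 31 of the 84 lower and 6 higher at an unadjusted p under 0.05. The 6 were POLR3D, POLR1C, SNAPC3, ZNF143, CCNT1 and CCNT2. Over all genes the shares at that threshold were 12.7% lower and 9.85% higher, and they too are not matched for level.

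Subunits and initiation factors of polymerase III showed small differences. Of 17 measured subunits, 1 fell, against 3.27% of all genes. It was POLR2L (-0.38, SE 0.068, limma adjusted p = 0.0261), a small subunit shared by the nuclear polymerases. POLR3F, a subunit found in polymerase III alone, differed by -0.18 (SE 0.054, limma adjusted p = 0.102). None of 18 initiation factors passed limma's test, with 5 lower and 2 higher at an unadjusted p under 0.05, against 12.7% and 9.85% of all genes. The nearest were GTF3C1 (-0.15, SE 0.042, limma adjusted p = 0.0805) and GTF3C5 (-0.17, SE 0.046, limma adjusted p = 0.0823), both subunits of TFIIIC, which binds promoters inside the gene.

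The particles built on the 3 longer RNAs held protein genes that fell. Of 7 measured genes listed with the 7SK particle, AFF4 among them, 2 fell, against 3.27% of all genes. They were HEXIM1 (-0.33, SE 0.054, limma adjusted p = 0.0203), which inhibits P-TEFb when bound to 7SK, and MEPCE (-0.19, SE 0.041, limma adjusted p = 0.0468), the enzyme that caps 7SK. CCNT1 (0.21, SE 0.062, limma adjusted p = 0.103) and CCNT2 (0.095, SE 0.038, limma adjusted p = 0.198) were higher and did not pass. Treated arrays lay wholly under untreated ones for 2 of the 7 and wholly above for 2, against 16.7% and 12.5% of all genes. LARP7, which holds the 3' end of 7SK, differed by -0.045 (SE 0.053, limma adjusted p = 0.674). Among 11 proteins of RNase P and RNase MRP, 2 fell, against the same 3.27% of all genes. POP1, the largest of them, read 7.10, 7.17 and 7.13 in untreated and 6.61, 6.52 and 6.60 in treated cultures, a change of -0.56 (SE 0.043, limma adjusted p = 0.00326), and POP7 changed by -0.22 (SE 0.048, limma adjusted p = 0.043).

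Among 9 measured La, Ro and Y RNA proteins 2 fell, against 3.27% of all genes. They were PUF60 (-0.33, SE 0.070, limma adjusted p = 0.0431), a splicing factor that also binds the Ro particle, and EXOSC10 (-0.29, SE 0.037, limma adjusted p = 0.0105), a nuclease of the nuclear exosome. Those that bind the RNAs most directly did not pass: SSB, which encodes La, differed by 0.041 (SE 0.070, limma adjusted p = 0.785) and RO60 by 0.074 (SE 0.064, limma adjusted p = 0.556). Of 3 vault-linked genes NSUN2, which methylates vault RNAs and transfer RNAs, fell (-0.32, SE 0.043, limma adjusted p = 0.0115), against the same 3.27% of all genes. PARP4 (0.065, limma adjusted p = 0.414) and MVP (-0.091, limma adjusted p = 0.439), both proteins of the vault, did not pass.

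Of 19 genes of U6 maturation and the particle that carries U6, 2 fell and none rose, against 3.27% and 2.93% of all genes. Lower means were found for 14, against 58.2% of all genes. USB1, which trims the 3' end of U6, read 7.03, 6.89 and 7.01 in untreated and 6.77, 6.70 and 6.66 in treated cultures, a change of -0.27 (SE 0.053, limma adjusted p = 0.0332). PRPF31, which joins U4 and U6 to U5, changed by -0.32 (SE 0.046, limma adjusted p = 0.0132).

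Most of the 10 calls among partners depended on single arrays. POP1 kept its call whichever array was left out, and it was also the 1 call left when every probe set was tested on its own. The number of falls was 3, 6 and 1 without untreated replicates 1, 2 and 3, and 6, 4 and 2 without treated replicates 1, 2 and 3. EXOSC10 and NSUN2 lost their calls without untreated replicate 3 or treated replicate 3, PRPF31 without these or untreated replicate 1, and USB1 without these 3 or treated replicate 2. POLR2L kept its call only without untreated replicate 2, HEXIM1 only without treated replicate 3 and PUF60 only without treated replicate 1. MEPCE and POP7 lost theirs in all 6 fits, with adjusted p of up to 0.15.

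**Figure D5:**
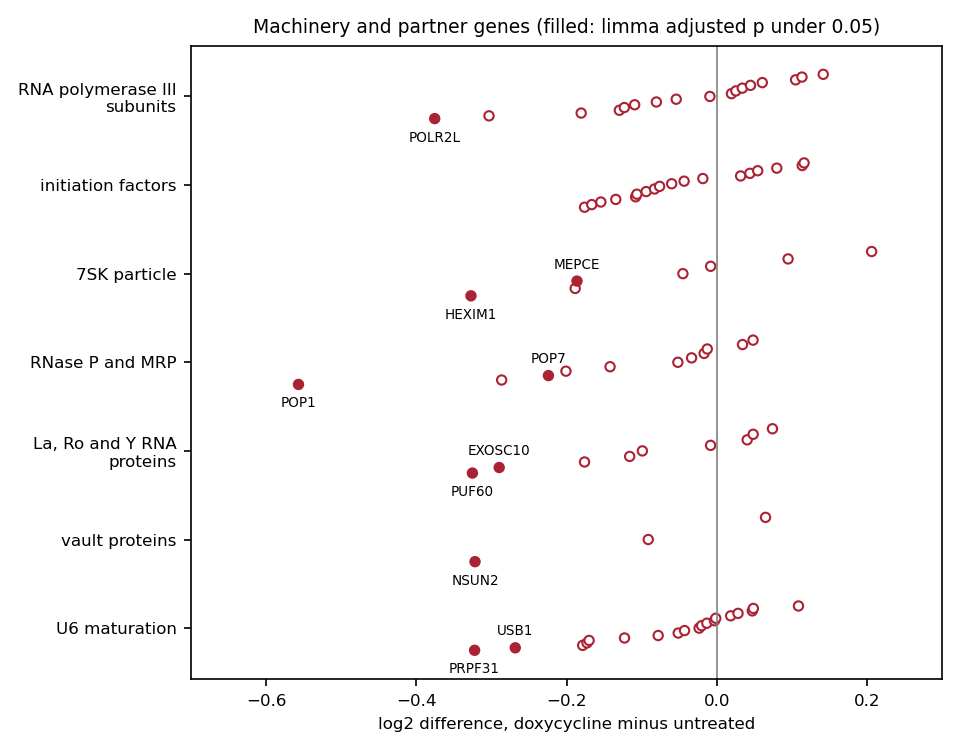
Log2 difference, doxycycline minus untreated (x axis), of each measured gene of polymerase III, its initiation factors and the proteins of the particles (y axis, by list; vertical spread within a list is by rank). The 10 filled points passed limma's test, all with lower signal in treated cultures, and POP1 at -0.56 lies farthest from 0.

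The genes most like 2 of the members in their pattern over the 6 arrays were found among 11205 genes at or above the median level, by the root mean square distance between values centred on each gene's mean. For RN7SK these were MORF4L1 (0.0060), GPC4 (0.0096) and SIRT5 (0.011), each nearly flat over the arrays. For RNU6-1 they were its own copies, RNU6-11P and RNU6-37P at a distance of 0 and RNU6-33P at 0.0086. The first gene outside the U6 family, TIPIN, was named after its value was seen (0.041). With 6 arrays and this many genes, some distances are small whatever the genes are.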

How the data were processed

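Log2 signals of 6 arrays were used, 1 value per probe set and array, which the authors deposited after RMA per the submitters' processing notes. RMA subtracts background, equalises array distributions and summarises probes. The software's version and the annotation behind the probe sets are not given in the sources used here. No detection call is attached, so olfactory receptor genes served as a yardstick, chosen after the data were seen. Total RNA went through a silica column and was then labelled as sense-strand cDNA, per the labels' protocols. Groups and replicate numbers came from the sample titles. The labels call the cultures independent, and precision is limited by the number of arrays.

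Of 70523 probe sets, 23781 carried 1 symbol through the platform's annotation, 1543 several and 45199 were unnamed here. Symbols were updated through RefSeq (GRCh38.p14, 306 changed), which gave 22411 genes, and for 528 with several probe sets the brightest was kept. Gene lengths and chromosomes are RefSeq's. No sequences of these genes are shown.

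Tests used lmFit and eBayes of limma 3.58.1 under R 4.3.3 (treatment as the single term, without trend), with Benjamini-Hochberg adjustment over all genes; "rose" and "fell" mean adjusted p under 0.05. SE are those of this fit, except where the fit of every probe set is named. The procedure was tested on simulated data. Tables used Python 3.11.15 and pandas 2.3.3, figures matplotlib 3.10.9. The members, lists and tests were chosen with earlier results of these data known. Named list genes were those past the threshold, up to 6 per list, or the 2 with the smallest adjusted p where fewer than 2 passed, and the 2 largest calls per class chosen by symbol. Other genes are named as examples of their list. The alternatives are given in the closing section. Deviations of same-numbered arrays had correlations near 0, which with 3 arrays per group cannot show whether those cultures were handled together.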

Additional observations from a re-analysis of the deposited data

How the results depend on the processing

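The calls over all genes, partners and short RNA classes, the differences of the 10 genes and the named genes were recomputed under up to 15 alternatives, 6 of which left out 1 array. RNY4, VTRNA1-1 and VTRNA1-2 had values in 13. The tallies by U6 or snaR family, length and single list, and the counts at an unadjusted p, were not recomputed. The median log2 difference of the 10 genes stayed negative in all 15, between -0.28 and -0.095 when 1 array was left out and between -0.19 and -0.16 otherwise; background subtraction and the filter at the median level each kept 7 of the 10. SLBP kept its call in all 15 (adjusted p at most 0.0425). RN7SK differed by -0.025 with quantile normalization repeated, a change of sign, and RNY4 by -0.24 with the mean of its probe sets.

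The counts of calls moved more. Over all genes, 656 rose and 732 fell, against 1025 and 1149 with background subtraction, 1156 and 1413 with genes under the median level left out, 1511 and 1714 with array weights, and 186 and 158 of all probe sets when each was tested on its own. With the replicate number as a block the counts were 157 and 174. Same-numbered arrays had correlations of their deviations of 0.030, -0.001 and -0.016, and differently numbered ones from -0.10 to 0.10. With 3 arrays per group this cannot show whether same-numbered cultures were handled together. With 1 array left out, 63 to 561 rose and 69 to 537 fell, fewest without treated replicate 3.

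Among polymerase III and partner genes, 10 fell and none rose. The falls numbered 16 with background subtraction, 19 without genes under the median level, 16 with trend and robust settings, 19 with array weights, 1 with every probe set tested and 5 with the replicate block, and 1 to 6 with 1 array left out. The rises numbered 2 without genes under the median level and 4 with array weights. Among other short RNA classes, 26 rose and 20 fell, against 54 and 80 with array weights, 5 and 1 with every probe set tested, 9 and 7 with the replicate block, and 6 to 21 and 2 to 25 with 1 array left out. These fits with fewer arrays or more tests have less power. For members near or under the yardstick, small differences were not detectable against the spread of 3 arrays.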
